A study of Mus musculus with 20 samples.

Results

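Genes of cholesterol and fatty acid synthesis were followed in mouse proximal colon organoids by single-colour microarray. The set holds 32 genes, listed by name for their place in these pathways, of 21457 genes tested. It has 18 genes of the sterol pathway (Acat2, Hmgcs1, Mvk, Pmvk, Mvd, Idi1, Fdps, Fdft1, Sqle, Lss, Cyp51, Tm7sf2, Msmo1, Nsdhl, Hsd17b7, Ebp, Sc5d and Dhcr7), 6 regulators and carriers (Srebf1, Srebf2, Scap, Insig1, Insig2 and Stard4) and 8 genes of fatty acid synthesis (Acly, Acaca, Fasn, Scd1, Scd2, Elovl6, Fads1 and Fads2). All 32 were found on the array, Msmo1 under its older name Sc4mol, and all were well above background on all 18 arrays compared.

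The organoids came from the first 2.5 cm of the colon of male mice aged about 40 days that carried 1 Braf allele able to switch to V600E, an always-active form of the kinase, once Cre is delivered (Braf+/LSL). Cultures given the lentiviral backbone without Cre (empty vector, EV) were the controls, and cultures in which Cre had induced BrafV600E were profiled 5 months after induction. A further set, called base-selected here, came from BrafV600E organoids kept in base medium, a medium free of stem-cell niche factors. Each of these 3 types had 3 numbered lines, and the same 3 numbers recur in every type. Each culture was profiled after 48 h in ENSW and after 48 h in base medium, so that 18 arrays form 6 groups of 3. According to the labels, routine culture used conditioned media with Wnt3a (50%), R-Spondin (20%) and Noggin (10%), plus EGF, all of which act on crypt stem cells. The labels do not say whether the numbers stand for separate mice, so p-values measure the spread between these lines. The main fit, on 6 group means, does not pair the media of a culture. Its p-values for a change of medium therefore use the spread between lines, not that of differences within a culture. For each type the medium comparison is also given with the culture as a block. A wild-type (WT) organoid was profiled once in each medium and is only described.

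Cholesterol is built from acetyl-CoA through mevalonate, squalene and lanosterol, and fatty acids from acetyl-CoA through malonyl-CoA, followed by elongation and desaturation. Both pathways are switched on by the sterol regulatory element-binding proteins (SREBPs), transcription factors held in the endoplasmic reticulum by Scap and the Insig proteins while sterols are plentiful and released to the nucleus when sterols run low. The product of Srebf2 acts mainly on sterol genes and the main product of Srebf1 mainly on fatty acid genes, and NF-Y, which binds CCAAT, works with the SREBPs at many of these promoters.

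Promoter sequences from RefSeq (assembly GRCm38.p6, 250 bases before to 50 after each start) were held for 25 of the 32 genes, with 33 promoters in all. Those of Fdps, Fdft1, Sqle, Stard4, Scd1, Scd2 and Fads1 are only named. CCAAT, searched on both strands, was found in 14 of 18 sterol gene promoters (77.8%), 5 of 10 regulator promoters (50.0%) and 2 of 5 fatty acid gene promoters (40.0%), against 37.4% of the 32851 promoters in the table. The GC box GGGCGG was found in 83.3% of the sterol gene promoters and 35.7% of all promoters. The sterol regulatory element core TCACNCCAC occurred in 1 of the 33 promoters, that of Hmgcs1, and in 1.24% of all. The E-box CACGTG, the same on both strands, was found in 6 of the 33 promoters (18.2%) and 7.15% of all. Matches are letters in a window, not shown binding sites. The 150 bases before the start are given below, 5′ to 3′ on the gene's strand, for genes that the results turn on: Hmgcs1 for its sterol element core, Idi1 as a called sterol gene with CCAAT boxes, Insig2 and Fasn because they moved in opposite directions, and Fads2 because it had the widest fall and no CCAAT. Capitals mark CCAAT, its reverse complement and the sterol element core, and adjoining capitals in Fasn are overlapping boxes of opposite strands. Insig2 also has other starts with a GC box and no CCAAT in their promoters, which are not printed.

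Hmgcs1 (chr13:119690201-119690350, plus strand): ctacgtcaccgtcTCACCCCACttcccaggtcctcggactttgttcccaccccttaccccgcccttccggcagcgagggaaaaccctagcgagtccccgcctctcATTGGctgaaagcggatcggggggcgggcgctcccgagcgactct
Idi1 (chr13:8885456-8885605, plus strand): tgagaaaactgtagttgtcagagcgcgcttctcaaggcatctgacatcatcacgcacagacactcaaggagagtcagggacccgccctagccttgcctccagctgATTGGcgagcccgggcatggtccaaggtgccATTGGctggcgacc
Insig2 (chr1:121332590-121332739, minus strand): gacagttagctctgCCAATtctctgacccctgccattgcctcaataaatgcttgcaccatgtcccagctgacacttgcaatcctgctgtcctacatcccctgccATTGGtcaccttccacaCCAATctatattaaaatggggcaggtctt
Fasn (chr11:120824548-120824697, minus strand): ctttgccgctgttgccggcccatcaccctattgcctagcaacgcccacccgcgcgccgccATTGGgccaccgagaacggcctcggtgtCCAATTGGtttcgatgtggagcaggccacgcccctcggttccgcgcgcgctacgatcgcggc
Fads2 (chr19:10101504-10101653, minus strand): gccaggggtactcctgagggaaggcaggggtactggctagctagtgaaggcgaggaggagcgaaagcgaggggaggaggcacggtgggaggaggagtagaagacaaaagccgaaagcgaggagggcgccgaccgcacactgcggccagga

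Levels are log2 signals minus the 75th percentile of the array, so 0 is that percentile and a difference of 1 is a doubling. A gene is called changed when its limma p-value, adjusted by the Benjamini-Hochberg method over all genes tested, is under 0.05, and each difference is given ± its standard error (SE). Between 59.6% and 65.2% of spots were well above background on an array. EV arrays lay on slides that held no BrafV600E or base-selected array, so slide and type cannot be told apart in comparisons with EV, whereas both media of a culture always shared a slide. The 6 epithelial markers, such as Epcam, were detected on every array. Of markers of other cells, Col1a1, Col3a1, Dcn, Pdgfra, Lyz2, Cdh5, Adipoq, Alb and Ttr did not pass the filter for expression. Others did pass: 3 of 8 mesenchymal, 5 of 8 blood and endothelial and 5 of 8 adipocyte and hepatocyte markers. On each array 4 or 5 of the blood and endothelial markers were well above background. Of the 3 mesenchymal markers that did pass, Thy1 and Pdgfrb fell below EV in base-selected cultures when both were in base medium (-9.52 ± 0.73, adjusted p = 6.18e-07 and -3.14 ± 0.46, adjusted p = 7.01e-05). Thy1 rose with base medium in EV (4.01 ± 0.73, adjusted p = 0.000599) and BrafV600E organoids (3.34 ± 0.73, adjusted p = 0.0378). The mesenchymal summed level was -1.82 to -0.61 in EV ENSW, 1.02 to 2.71 in EV base medium and -3.07 to -2.56 over the base-selected arrays, and their part in the results was not tested.

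In EV organoids, 48 h in base medium lowered 5 of 8 fatty acid genes and 4 of 18 sterol genes, and raised Insig2. Of the 32 genes 9 fell and 1 rose, where 42.1% of all genes were called, 18.7% lower and 23.4% higher (the median of all genes was 0.19, or 0.08 after quantile normalization). Of 8 fatty acid genes 5 fell, of 18 sterol genes 4 fell and none rose, and of 6 regulators 1 rose. In this main fit the 32 genes were thus called less often than all genes, and the share of sterol genes that fell was near that of all genes. With the culture as a random block 20 of the 32 were called, so this reading depends on the fit. In these bulk samples, fewer cells of a type and less RNA per cell cannot be told apart. In the same contrast all 15 proliferation genes fell (median log2 difference -4.73) and 10 of 11 colonocyte genes rose (median 3.74), and the part of either in the values below was not tested. Of 8 goblet genes 3 rose and of 7 stem cell genes 4 fell. The summed level of the colonocyte genes (log2 of the sum of their signals) ranged from 6.68 to 8.70 in EV ENSW, 10.5 to 11.5 in EV base medium, 5.83 to 6.18 and 7.60 to 9.13 in BrafV600E ENSW and base medium, and 5.23 to 5.74 and 5.26 to 5.70 in base-selected ENSW and base medium. That of the proliferation genes was 6.77 to 6.99, 1.41 to 3.56, 5.69 to 6.93, 4.92 to 5.91, 6.29 to 6.61 and 6.53 to 7.06 in the same order. Slc26a3, a defining colonocyte transporter, was not well above background in BrafV600E ENSW or in base-selected organoids.

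The desaturases that make polyunsaturated fatty acids changed furthest. Fads2 stood at 2.33, 1.26 and 2.44 in ENSW in lines 1 to 3 and at -0.72, -1.08 and -2.49 in base medium. No base array reached the lowest ENSW array, and the fall was 10.9-fold (-3.44 ± 0.57, adjusted p = 0.000289). Fads1, whose probe lies on chromosome 19 at 10270530 to 10270589 (mm9, the build of the array design), was at -1.41, -3.66 and -1.13 in ENSW and -4.42, -5.17 and -4.98 in base medium. Line 2 was already low in ENSW, the groups did not overlap, and the fall was 6.91-fold (-2.79 ± 0.96, adjusted p = 0.0312). The Fads2 probe lies on the same chromosome at 10163229 to 10163288.

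Fasn, the synthase that builds the saturated chain, was at -1.50, -1.67 and -1.61 in ENSW and at -2.52, -2.75 and -3.90 in base medium. The ENSW arrays were close together, line 3 was lowest in base medium, and the fall was 2.76-fold (-1.47 ± 0.28, adjusted p = 0.000884). Scd2, a stearoyl-CoA desaturase, went from 5.67, 5.43 and 5.76 to 4.91, 4.72 and 4.0, a fall of 2.11-fold (-1.08 ± 0.27, adjusted p = 0.00582). Acaca, the acetyl-CoA carboxylase that makes malonyl-CoA, was the fifth of the fatty acid genes to fall. Scd1, the second stearoyl-CoA desaturase, did not pass the test: its arrays were at -0.61, -1.77 and -0.80 in ENSW and -0.75, -2.0 and -0.30 in base medium, with line 2 lowest in both. Acly, which makes cytosolic acetyl-CoA, was lower in all 3 lines without passing (-0.65 ± 0.26, adjusted p = 0.0549), and passed with the line as a block (adjusted p = 0.0232).

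The 4 sterol genes that fell were Acat2, Mvd, Idi1 and Fdps. Acat2, the thiolase that joins acetyl-CoA units, was at 0.73, 0.56 and 0.59 in ENSW and -0.29, -0.69 and -1.15 in base medium, with no overlap (-1.33 ± 0.29, adjusted p = 0.00206). Mvd, the mevalonate diphosphate decarboxylase, fell 1.96-fold (-0.97 ± 0.24, adjusted p = 0.00523). Idi1, the isopentenyl diphosphate isomerase, also fell (-0.79 ± 0.26, adjusted p = 0.0247), as did Fdps, the farnesyl diphosphate synthase. Mvk, mevalonate kinase, was lower in all 3 lines without a call (-0.66 ± 0.25, adjusted p = 0.0506), and was called once the line entered as a block (adjusted p = 0.0289). Lss, lanosterol synthase, was at 1.31, 0.91 and 1.12 in ENSW and 0.91, 0.25 and -0.15 in base medium, lower in each line (-0.78 ± 0.33, adjusted p = 0.074). Cyp51, a lanosterol demethylase, was also lower in all 3 lines without a call (-0.52 ± 0.29, adjusted p = 0.18). Sqle, Msmo1, Hsd17b7, Ebp, Sc5d and Dhcr7 were higher in all 3 lines, none of them called, with differences up to that of Sc5d (0.58). Over the whole sterol group 7 genes were lower and 6 higher in all 3 lines, against 29.2% and 45.2% of all genes.

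Of the 6 regulators only Insig2 was called. Insig2, which retains Scap and the SREBPs in the endoplasmic reticulum, was at 0.33, 0.38 and 0.35 in ENSW and 1.60, 1.61 and 1.77 in base medium. The lines lay within a narrow band in each medium and the rise was 2.48-fold (1.31 ± 0.18, adjusted p = 7.63e-05). Insig1, its paralogue and itself a classic SREBP target, was at 0.031, -0.60 and 0.029 in ENSW and 0.83, -0.32 and 1.21 in base medium, higher in base medium in every line but not called (0.76 ± 0.39, adjusted p = 0.134). Srebf2 went from 1.21, 1.36 and 1.25 to 0.93, 1.07 and 0.65, lower in every line (-0.39 ± 0.20, adjusted p = 0.129), and Srebf1 from -2.41, -2.87 and -2.73 to -2.35, -2.43 and -2.39, higher in every line (0.28 ± 0.23, adjusted p = 0.354). Neither passed. The count of 10 called genes dropped to 6 without EV ENSW line 1, EV ENSW line 3 or EV base line 3, and to 3 (1 higher and 2 lower) when line 3 was left out of every group. Insig2, Fads2, Fasn, Acat2, Mvd and Scd2 were called whichever single array was left out. With the culture, from which both media arrays come, as a random block in limma (correlation 0.53), 6 genes were called higher and 14 lower, against 34.7% and 23.6% of all genes.

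**Figure D1:**
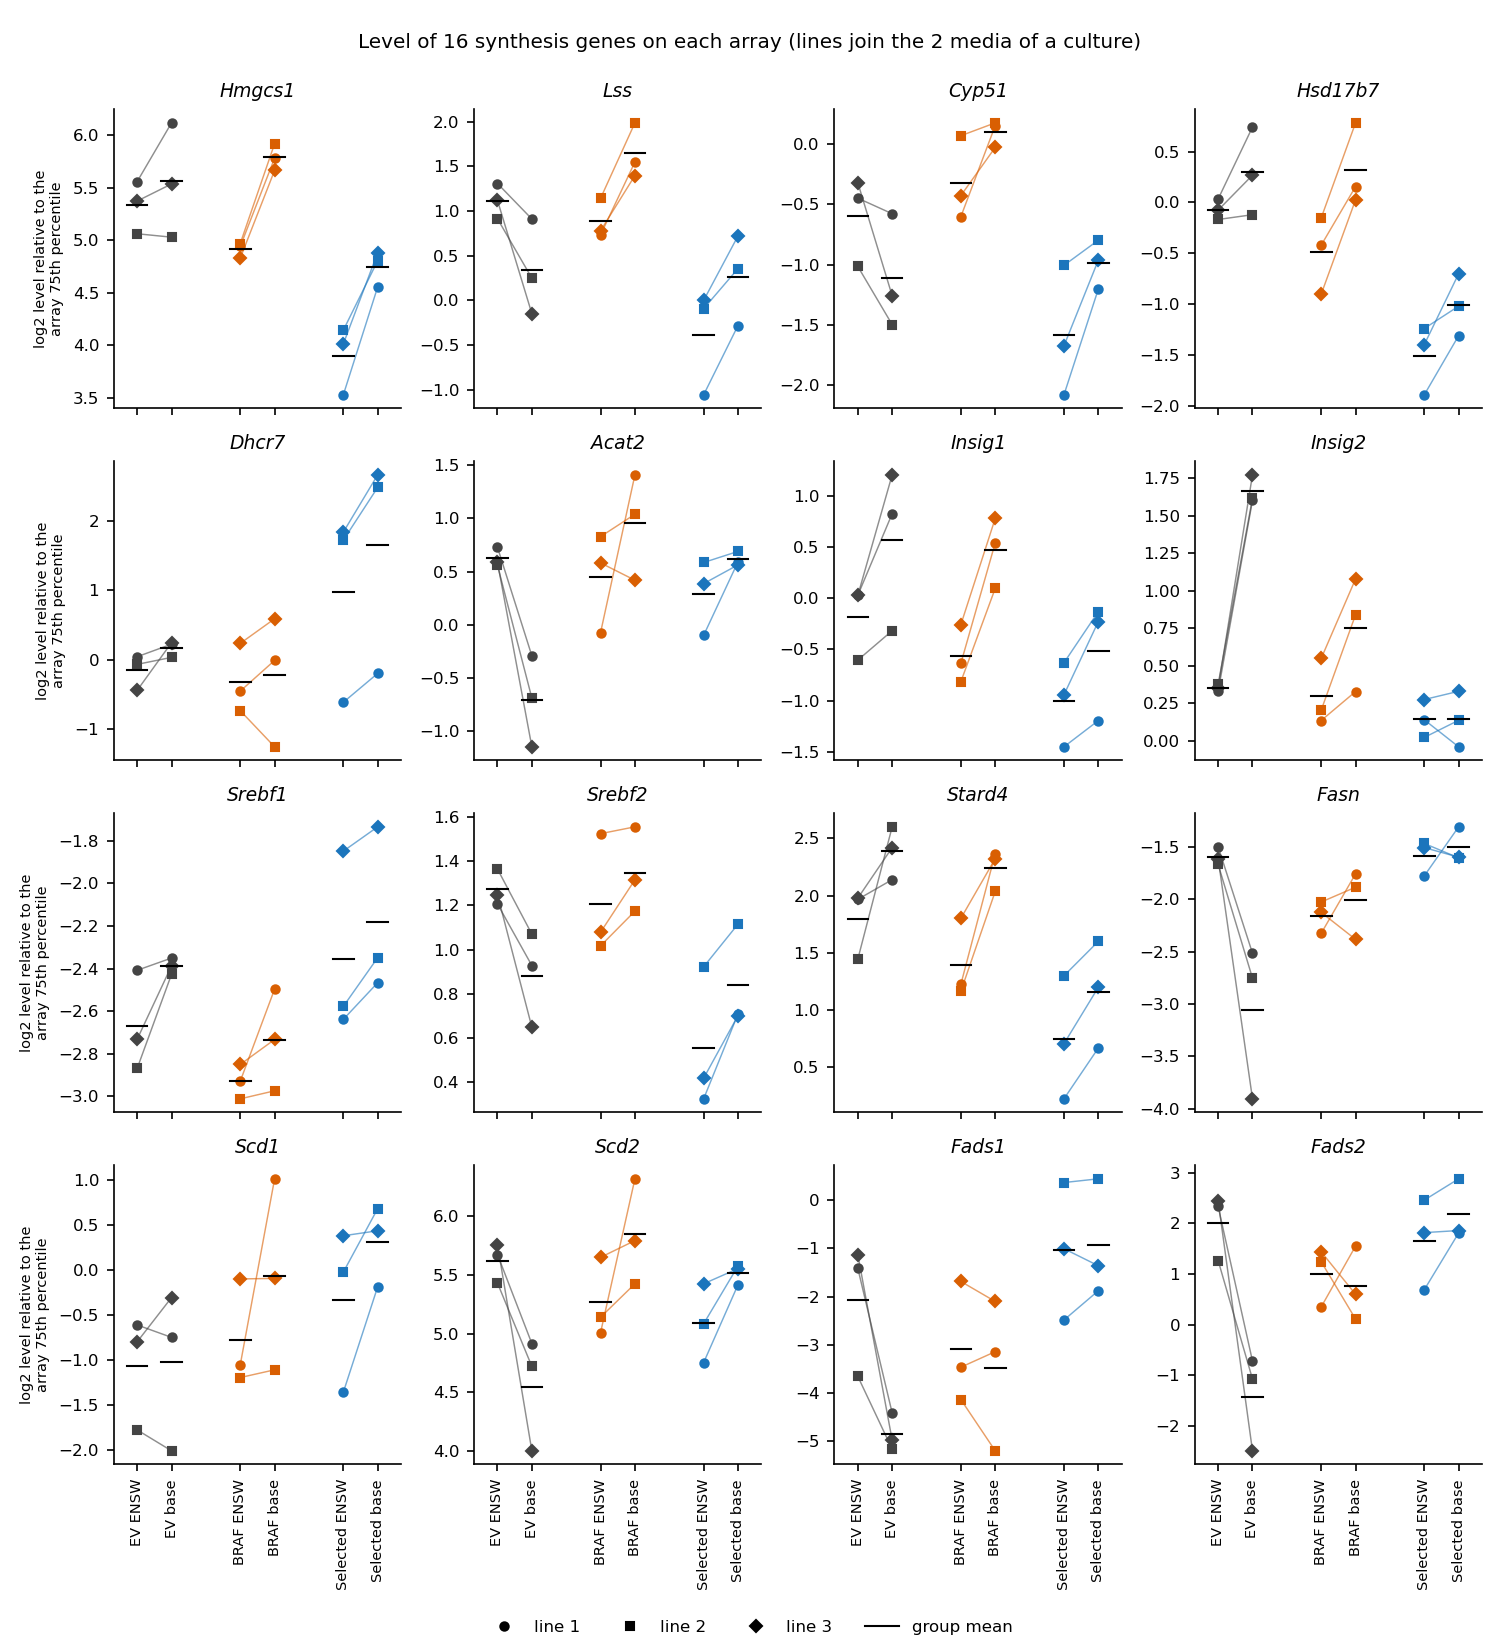
Log2 level of 16 genes, with each array's 75th percentile as 0 (vertical axis, its range differing between panels) on each of the 18 arrays, by type and medium. Symbols mark the line, thin lines join the media of a culture and black bars are group means; Fads2 and Fasn drop in EV base medium and not in base-selected organoids, and Hmgcs1, Lss and Hsd17b7 are lowest in base-selected organoids in ENSW.

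In BrafV600E organoids the same 48 h in base medium went with higher levels of the sterol genes in nearly every line. No gene of the 32 was called in the main fit, which does not pair the media, where 1.67% of all genes were, 1.08% higher and 0.592% lower. All 18 sterol genes had a higher mean in base medium (median log2 difference 0.64, against 0.06 over all genes). Of the 18, 16 were higher in all 3 lines, as were 28.1% of all genes (21.3% were lower). In 14 of the 32 the base medium arrays all lay above the ENSW arrays, as in 12.2% of all genes (9.75% lay below). Of the 32, 16 had an unadjusted limma p under 0.05, a cut for which the share of all genes was not counted. With the culture as a random block, 16 of the 32 were called higher and none lower, against 10.0% and 9.02% of all genes. Of these 12 were sterol genes, 3 were the regulators Insig1, Insig2 and Stard4, and 1 was the elongase Elovl6. Slide as a random block called 3 of the 32, normexp background correction called 1, and with the line as a fixed block none was called. Leaving out BRAF base line 1 gave 2 calls, and leaving out EV base line 1 or EV base line 2 gave 1 call each.

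Hmgcs1, the synthase that commits acetyl units to the mevalonate route, was at 4.94, 4.97 and 4.83 in ENSW and 5.78, 5.92 and 5.67 in base medium in BrafV600E lines 1 to 3. All base medium arrays lay above all ENSW arrays, with a difference of 0.88 ± 0.24, adjusted p = 0.0785 (adjusted p = 0.00266 with the culture block). Lss was at 0.73, 1.14 and 0.78 in ENSW and 1.55, 1.99 and 1.40 in base medium, again without overlap (0.76 ± 0.33, adjusted p = 0.238). Hsd17b7, a ketoreductase of the late pathway, was at -0.42, -0.15 and -0.90 in ENSW and 0.15, 0.78 and 0.025 in base medium (0.81 ± 0.28, adjusted p = 0.136). Cyp51 was at -0.60, 0.067 and -0.43 in ENSW and 0.15, 0.17 and -0.030 in base medium, higher in each line with overlapping groups (0.42 ± 0.29, adjusted p = 0.474). Fdft1, squalene synthase, and Sqle, squalene epoxidase, had the smallest adjusted p-values of the 32 (0.64 ± 0.16, adjusted p = 0.0667 and 0.74 ± 0.20, adjusted p = 0.073).

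Insig1 showed the widest difference among the 32 in these organoids: -0.64, -0.81 and -0.26 in ENSW against 0.54, 0.099 and 0.78 in base medium (1.04 ± 0.39, adjusted p = 0.171). Insig2 was at 0.13, 0.20 and 0.55 in ENSW and 0.33, 0.84 and 1.08 in base medium, with overlap (0.45 ± 0.18, adjusted p = 0.202). Stard4, which carries cholesterol between membranes, was at 1.23, 1.16 and 1.80 in ENSW and 2.37, 2.04 and 2.32 in base medium and did not overlap (0.85 ± 0.29, adjusted p = 0.144). The SREBP genes overlapped between the media: Srebf2 was at 1.52, 1.02 and 1.08 in ENSW and 1.56, 1.17 and 1.32 in base medium, and Srebf1 at -2.93, -3.01 and -2.85 in ENSW and -2.50, -2.97 and -2.73 in base medium.

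The fatty acid genes did not follow as a group. Fads2 was at 0.35, 1.24 and 1.44 in ENSW and 1.55, 0.11 and 0.60 in base medium, higher in line 1 and lower in lines 2 and 3 (-0.26 ± 0.57, adjusted p = 0.867). Fads1 likewise was at -3.47, -4.14 and -1.69 in ENSW and -3.14, -5.20 and -2.10 in base medium (-0.39 ± 0.96, adjusted p = 0.884). Scd1 was at -1.05, -1.19 and -0.098 in ENSW and 1.01, -1.11 and -0.093 in base medium, and Scd2 at 5.01, 5.14 and 5.65 in ENSW and 6.32, 5.42 and 5.79 in base medium. Line 1 had the highest difference of the 3 lines for 23 of the 32 genes. It also did for 17 in EV and 20 in base-selected organoids. Of 11 colonocyte genes 4 rose in this contrast (median 2.65), and their part was not tested. Over the 8 fatty acid genes the median difference was 1.0 in line 1, 0.070 in line 2 and -0.18 in line 3.

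Base-selected organoids, moved between the media for 48 h, again had every sterol gene higher in base medium in all 3 lines, 18 of 18, as were 19.6% of all genes (18.5% were lower). In 7 of the 32 the groups did not overlap, all higher. Of all genes 3.09% were higher without overlap and 2.35% lower. The sterol differences ran from 0.32 to 0.85 with a median of 0.61 (all genes: -0.00095), yet no gene of the 32 was called and only 1 gene of all, higher (0.00466% higher and 0.0% lower). Of the 32, 8 had an unadjusted limma p under 0.05, with the share of all genes not counted. The culture block called none (0.014% of all genes higher and 0.0% lower). Hmgcs1 was at 3.53, 4.14 and 4.01 in ENSW and 4.55, 4.80 and 4.88 in base medium, without overlap (0.85 ± 0.24). Idi1, Msmo1 and Mvd followed (0.78 ± 0.26, 0.72 ± 0.29 and 0.70 ± 0.24), each with an adjusted limma p of 1. Insig2 overlapped between the media, with 0.14, 0.021 and 0.27 in ENSW and -0.041, 0.14 and 0.33 in base medium. Fads2 was at 0.69, 2.46 and 1.81 in ENSW and 1.81, 2.88 and 1.86 in base medium, and Fasn at -1.78, -1.47 and -1.51 in ENSW and -1.31, -1.61 and -1.60 in base medium, so that neither showed the fall seen in EV. The proliferation genes, 15 of 15 lower in EV, had medians of -0.93 in BrafV600E and 0.37 in base-selected organoids, with none called in either.

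**Figure D2:**
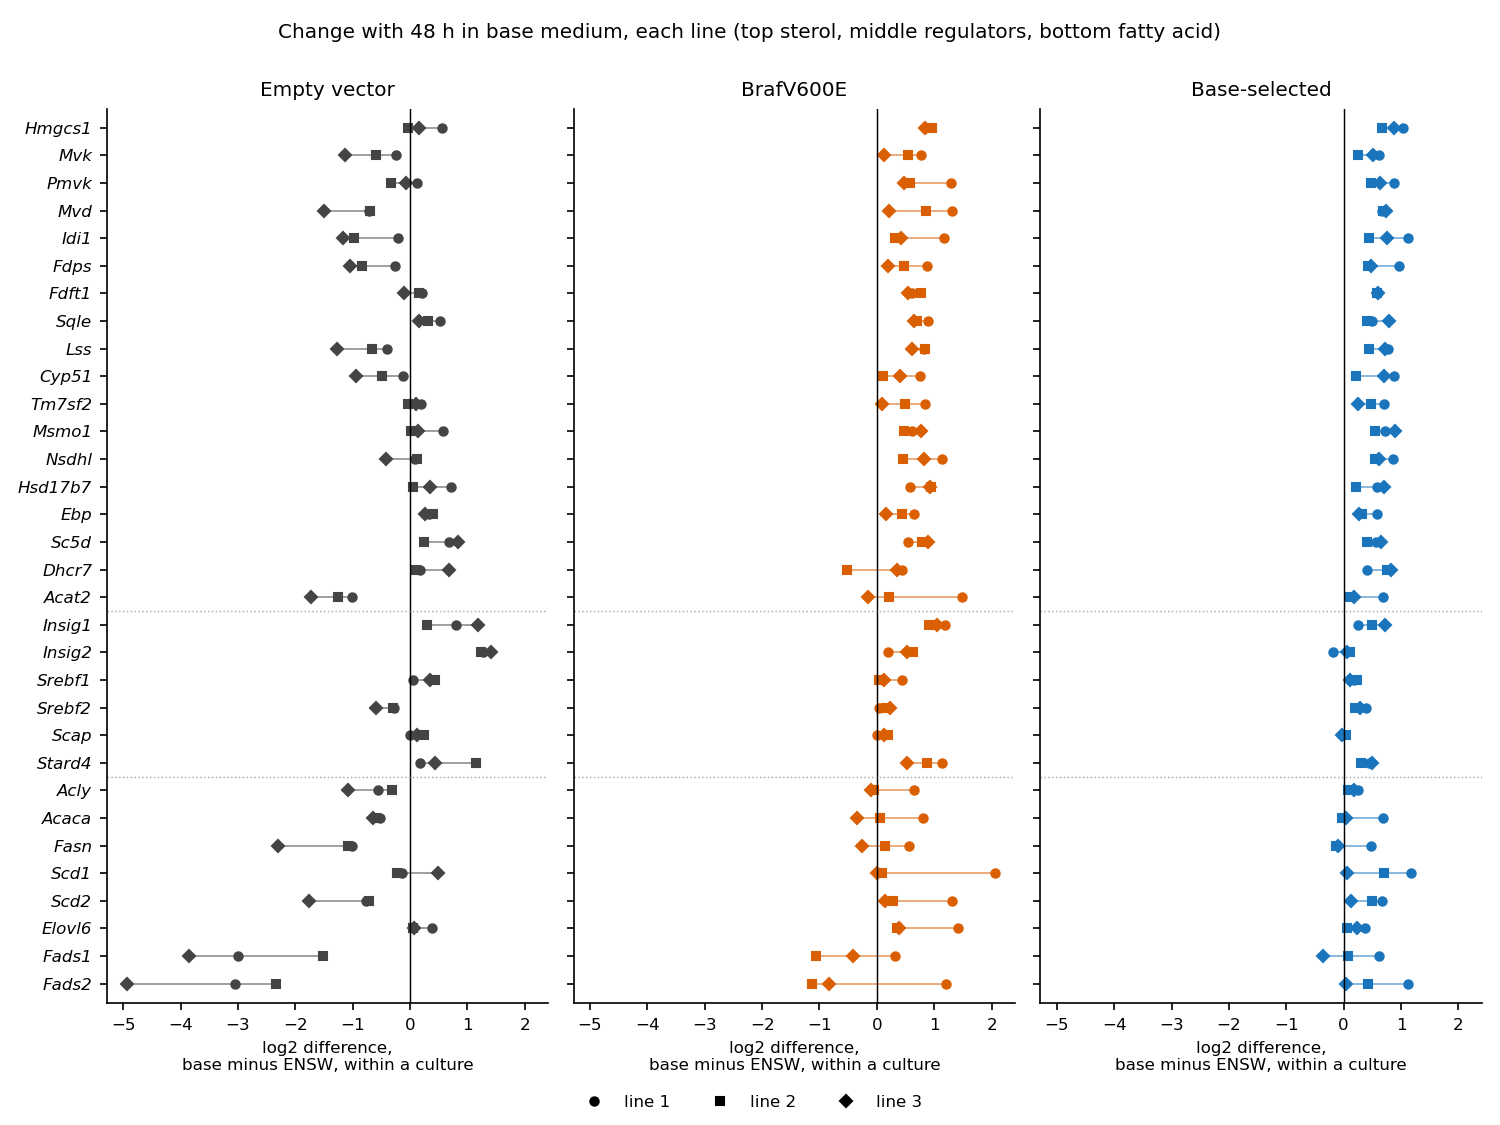
Log2 difference, base medium minus ENSW, within each culture (horizontal axis) for the 32 genes in EV, BrafV600E and base-selected organoids, with dotted lines between sterol genes, regulators and fatty acid genes. Each symbol is a line; the sterol genes lie right of 0 in all 3 base-selected lines, whereas Fads1, Fads2, Fasn and Acat2 lie left of 0 in every EV line.

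The responses to the medium were compared directly. Against EV, the response of BrafV600E organoids was higher for 6 of the 32 genes and lower for none, where 3.5% of all genes were called, 2.95% higher and 0.55% lower. These were Mvd (1.77 ± 0.34, adjusted p = 0.0228), Acat2 (1.84 ± 0.41, adjusted p = 0.0337), Scd2 (1.66 ± 0.39, adjusted p = 0.0397), Fasn (1.62 ± 0.40, adjusted p = 0.0445), Fads2 (3.19 ± 0.81, adjusted p = 0.0466) and Idi1 (1.42 ± 0.37, adjusted p = 0.0478). The culture block called 15 higher and 1, Insig2, lower, against 11.9% and 7.86% of all genes; Insig2 was also lower with the line as a block (adjusted p = 0.0326). None was called without EV ENSW line 1, 2 or 3, BRAF ENSW line 1 or 3 or BRAF base line 1, nor with slide as a fixed block, nor when any line was left out of all groups. Without EV base line 3, BRAF base line 2, base-selected ENSW line 2 or base-selected base line 3 there were 2, and without BRAF ENSW line 2, base-selected ENSW line 1 or 3 or base-selected base line 1 or 2 there were 3, the base-selected arrays entering through the shared estimate of spread. Without the filter on dim probes 2 were called.

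The response of base-selected organoids was higher than that of EV for 9 genes and lower for Insig2, where 24.2% of all genes were called, 13.8% higher and 10.4% lower. The genes with the smallest p-values were Insig2 (-1.31 ± 0.25, adjusted p = 0.00242), Fads2 (3.97 ± 0.81, adjusted p = 0.00315), Mvd (1.67 ± 0.34, adjusted p = 0.00333), Idi1 (1.56 ± 0.37, adjusted p = 0.00691), Acat2 (1.66 ± 0.41, adjusted p = 0.00913), Scd2 (1.51 ± 0.39, adjusted p = 0.0115), Fasn (1.55 ± 0.40, adjusted p = 0.0118) and Fdps (1.35 ± 0.36, adjusted p = 0.0141), with Mvk (1.12 ± 0.36, adjusted p = 0.0354) and Lss (1.43 ± 0.47, adjusted p = 0.0397) behind them. The culture block called 17 higher and 1 lower, against 19.2% and 23.9% of all genes. These comparisons share the EV arrays. The first 8 were called whichever single array was left out; without line 2 in all groups 5 were called and without line 3 only 1. Between base-selected and BrafV600E organoids no gene of the 32, and 0.0% of all genes, differed in response (limma, no unadjusted p under 0.05 among the 32). The proliferation genes moved with both responses: 13 of 15 had a higher response than EV in either type (median difference 3.42 and 5.04), and their part was not tested.

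Between BrafV600E and EV organoids in ENSW, no gene of the 32 was called, where 6.28% of all genes were, 4.87% higher and 1.42% lower. By limma 4 of the 32 had an unadjusted p under 0.05, with the share of all genes not counted. Yet 29 of the 32 means were lower in BrafV600E, with a median of -0.29 against 0.06 over all genes. For 9 of the 32 the groups did not overlap, all lower. Of all genes 13.6% were lower without overlap and 22.1% higher. The differences furthest from 0 were those of Fads1 (-1.03 ± 0.96, adjusted p = 0.583), Fads2 (-1.0 ± 0.57, adjusted p = 0.326), Tm7sf2, a sterol reductase (-0.86 ± 0.33, adjusted p = 0.137), and Mvd (-0.66 ± 0.24, adjusted p = 0.119). With the line as a block Tm7sf2 was called lower (adjusted p = 0.0137). At 4 of 11 colonocyte genes BrafV600E was lower in ENSW (median -2.88), and their part was not tested.

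In base medium 7 of 18 sterol genes (Acat2, Mvk, Mvd, Idi1, Fdps, Lss and Cyp51) and 3 of 8 fatty acid genes (Fasn, Scd2 and Fads2) were higher in BrafV600E organoids than in EV, and Insig2, 1 of 6 regulators, was lower. Of the 32 genes 10 were higher and 1 lower, where 31.0% of all genes were called, 17.9% higher and 13.1% lower. Acat2 was at 1.41, 1.04 and 0.42 in BrafV600E base medium against -0.29, -0.69 and -1.15 in EV, 3.17-fold higher (1.67 ± 0.29, adjusted p = 0.000799). Idi1, Mvd and Fdps were 2.41-fold, 2.15-fold and 2.22-fold higher (log2 1.27 ± 0.26, adjusted p = 0.0024; 1.10 ± 0.24, adjusted p = 0.004; and 1.15 ± 0.25, adjusted p = 0.00404). Lss was at 1.55, 1.99 and 1.40 against 0.91, 0.25 and -0.15, and the difference was 1.31 ± 0.33, adjusted p = 0.00905. Cyp51 was at 0.15, 0.17 and -0.030 against -0.58, -1.50 and -1.26, with all BrafV600E arrays above all EV arrays (1.21 ± 0.29, adjusted p = 0.00725). Scd2 was at 6.32, 5.42 and 5.79 against 4.91, 4.72 and 4.0 (1.30 ± 0.27, adjusted p = 0.00293). Fads2, Fasn and Mvk were also higher, and Fads2 in BrafV600E was at 1.55, 0.11 and 0.60 while EV lay at -0.72, -1.08 and -2.49.

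Insig2 was the exception, at 0.33, 0.84 and 1.08 in BrafV600E against 1.60, 1.61 and 1.77 in EV, the groups apart (-0.91 ± 0.18, adjusted p = 0.00192). Srebf2 was at 1.56, 1.17 and 1.32 against 0.93, 1.07 and 0.65, above EV on every array but not called (0.47 ± 0.20, adjusted p = 0.0871). Of the genes not called the widest differences were Fads1 (1.37 ± 0.96, adjusted p = 0.3), Scd1 (0.96 ± 0.60, adjusted p = 0.243), Pmvk, phosphomevalonate kinase (0.76 ± 0.34, adjusted p = 0.109), and Acly (0.67 ± 0.26, adjusted p = 0.0604), the last of which passed with the line as a block (adjusted p = 0.0261). The 11 calls became 7 without line 2 in all groups and 6 without line 3, and 8 of them held whichever single array was left out. In this comparison all 15 proliferation genes were higher (median 3.15) and 8 of 11 colonocyte genes lower (median -3.08), and their part was not tested.

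Base-selected organoids in ENSW had lower levels of 11 of 18 sterol genes than EV in the same medium, and none of the 8 fatty acid genes passed the test. Of the 32 genes 13 were lower and none higher, where 13.8% of all genes were called, 5.14% lower and 8.71% higher. Of the 6 regulators 2 were lower (Srebf2 and Stard4). The median difference was -0.83 for sterol genes, -0.46 for regulators and -0.18 for fatty acid genes, against 0.11 for all genes. In that contrast 8 of 11 colonocyte genes were lower and 1 was higher (median -6.37), while of 15 proliferation genes 1 was called, higher (median -0.36), and the part of these genes was not tested.

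Hmgcs1 was at 3.53, 4.14 and 4.01 in base-selected ENSW against 5.56, 5.06 and 5.37 in EV ENSW, with no overlap, and was 2.71-fold lower (-1.44 ± 0.24, adjusted p = 0.00216). Lss was at -1.06, -0.094 and -0.0011 against 1.31, 0.91 and 1.12 (-1.50 ± 0.33, adjusted p = 0.0107). Hsd17b7 was at -1.89, -1.24 and -1.40 against 0.033, -0.17 and -0.077, 2.71-fold lower (-1.44 ± 0.28, adjusted p = 0.00478). Line 1 was the lowest base-selected line for all 3 genes. Fdft1 (-1.05 ± 0.16, adjusted p = 0.0015), Mvd (-1.16 ± 0.24, adjusted p = 0.00797), Sqle (-0.85 ± 0.20, adjusted p = 0.0142), Mvk (-0.93 ± 0.25, adjusted p = 0.028) and Ebp, a sterol isomerase (-0.82 ± 0.19, adjusted p = 0.0119), were lower as well, as were Nsdhl, Cyp51 and Idi1. Dhcr7 had a higher mean without a call (1.13 ± 0.74, adjusted p = 0.325). With the line as a block Idi1 lost its call (adjusted p = 0.0502) and Tm7sf2 gained one (adjusted p = 0.0352).

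Srebf2, the gene of the factor that drives sterol genes, was at 0.32, 0.92 and 0.42 in base-selected ENSW against 1.21, 1.36 and 1.25 in EV, with no overlap (-0.72 ± 0.20, adjusted p = 0.0291). Stard4 was at 0.22, 1.30 and 0.71 against 1.97, 1.44 and 1.98, also with no overlap (-1.05 ± 0.29, adjusted p = 0.0299). Srebf1 was at -2.64, -2.58 and -1.85 against -2.41, -2.87 and -2.73, line 3 standing above the rest, and was not called (0.32 ± 0.23, adjusted p = 0.382). Insig1 was at -1.45, -0.63 and -0.94 against 0.031, -0.60 and 0.029 (-0.83 ± 0.39, adjusted p = 0.164). The count of 13 fell to 5 without EV ENSW line 1, 6 without EV ENSW line 3 or base-selected ENSW line 1, 7 without base-selected ENSW line 3, 2 without line 1 in all groups and 0 without line 3, and Hmgcs1, Mvd, Fdft1 and Hsd17b7 were the genes called whichever single array was left out. The fatty acid genes had wide intervals, with Fads1 at 1.02 ± 0.96, adjusted p = 0.512 and Scd1 at 0.73 ± 0.60, adjusted p = 0.445; the Fads1 difference turned to -0.48 when line 2 was left out.

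In base medium the genes called against EV went both ways, in shares near those of all genes. Of the 32 genes 7 were higher and 9 lower in base-selected organoids, where 48.2% of all genes were called, 25% higher and 23.2% lower. Fatty acid genes were 4 higher and none lower, sterol genes 3 higher (Acat2, Idi1 and Fdps) and 6 lower, and regulators 3 lower. The 15 proliferation genes were all higher (median 4.79) and 10 of 11 colonocyte genes lower (median -9.63). Of 8 goblet genes 6 were lower and of 7 stem cell genes 3 higher. Of 6 epithelial genes 4 were lower, Epcam among them (-1.86 ± 0.30, adjusted p = 0.000165). Of the 5 adipocyte and hepatocyte genes that passed the filter 2 were lower, and none of 5 blood and endothelial genes was called. The part of these lists was not tested.

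Fads2 was at 1.81, 2.88 and 1.86 in base-selected base medium against -0.72, -1.08 and -2.49 in EV, 12.2-fold higher (3.61 ± 0.57, adjusted p = 0.000132). Fads1 was at -1.88, 0.44 and -1.36 against -4.42, -5.17 and -4.98, 15.2-fold higher with all base-selected arrays above all EV arrays (3.92 ± 0.96, adjusted p = 0.00388). Fasn was at -1.31, -1.61 and -1.60 against -2.52, -2.75 and -3.90 (1.55 ± 0.28, adjusted p = 0.000404). Scd2, with 5.42, 5.58 and 5.55 against 4.91, 4.72 and 4.0, completed the 4. Scd1 did not pass (1.33 ± 0.60, adjusted p = 0.0804), nor did Acly (0.59 ± 0.26, adjusted p = 0.0704) or Acaca (0.52 ± 0.22, adjusted p = 0.0661), and Acly passed with the line as a block (adjusted p = 0.0315).

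Acat2 was at 0.59, 0.69 and 0.56 against -0.29, -0.69 and -1.15 and was higher (1.32 ± 0.29, adjusted p = 0.00165). The lower sterol genes were Hsd17b7, Ebp, Fdft1, Sqle, Sc5d and Hmgcs1. Hsd17b7 was at -1.31, -1.02 and -0.70 against 0.74, -0.12 and 0.27 (-1.31 ± 0.28, adjusted p = 0.0013), and Ebp differed by -0.76 ± 0.19, adjusted p = 0.00353. Dhcr7 had a higher mean without a call (1.48 ± 0.74, adjusted p = 0.114). Hmgcs1 was at 4.55, 4.80 and 4.88 against 6.12, 5.03 and 5.54. Insig2 had the smallest adjusted p of the 32 genes in this comparison, at -0.041, 0.14 and 0.33 against 1.60, 1.61 and 1.77, 2.87-fold lower (-1.52 ± 0.18, adjusted p = 1.28e-05). Stard4 was at 0.67, 1.60 and 1.20 against 2.14, 2.60 and 2.42 (-1.23 ± 0.29, adjusted p = 0.00305), and Insig1 at -1.20, -0.13 and -0.23 against 0.83, -0.32 and 1.21, with overlap. Without line 3 in all groups 6 were called, 4 higher and 2 lower; Insig2, Fads2, Fasn, Hsd17b7, Acat2, Stard4, Ebp and Fads1 were called whichever single array was left out.

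**Figure D3:**
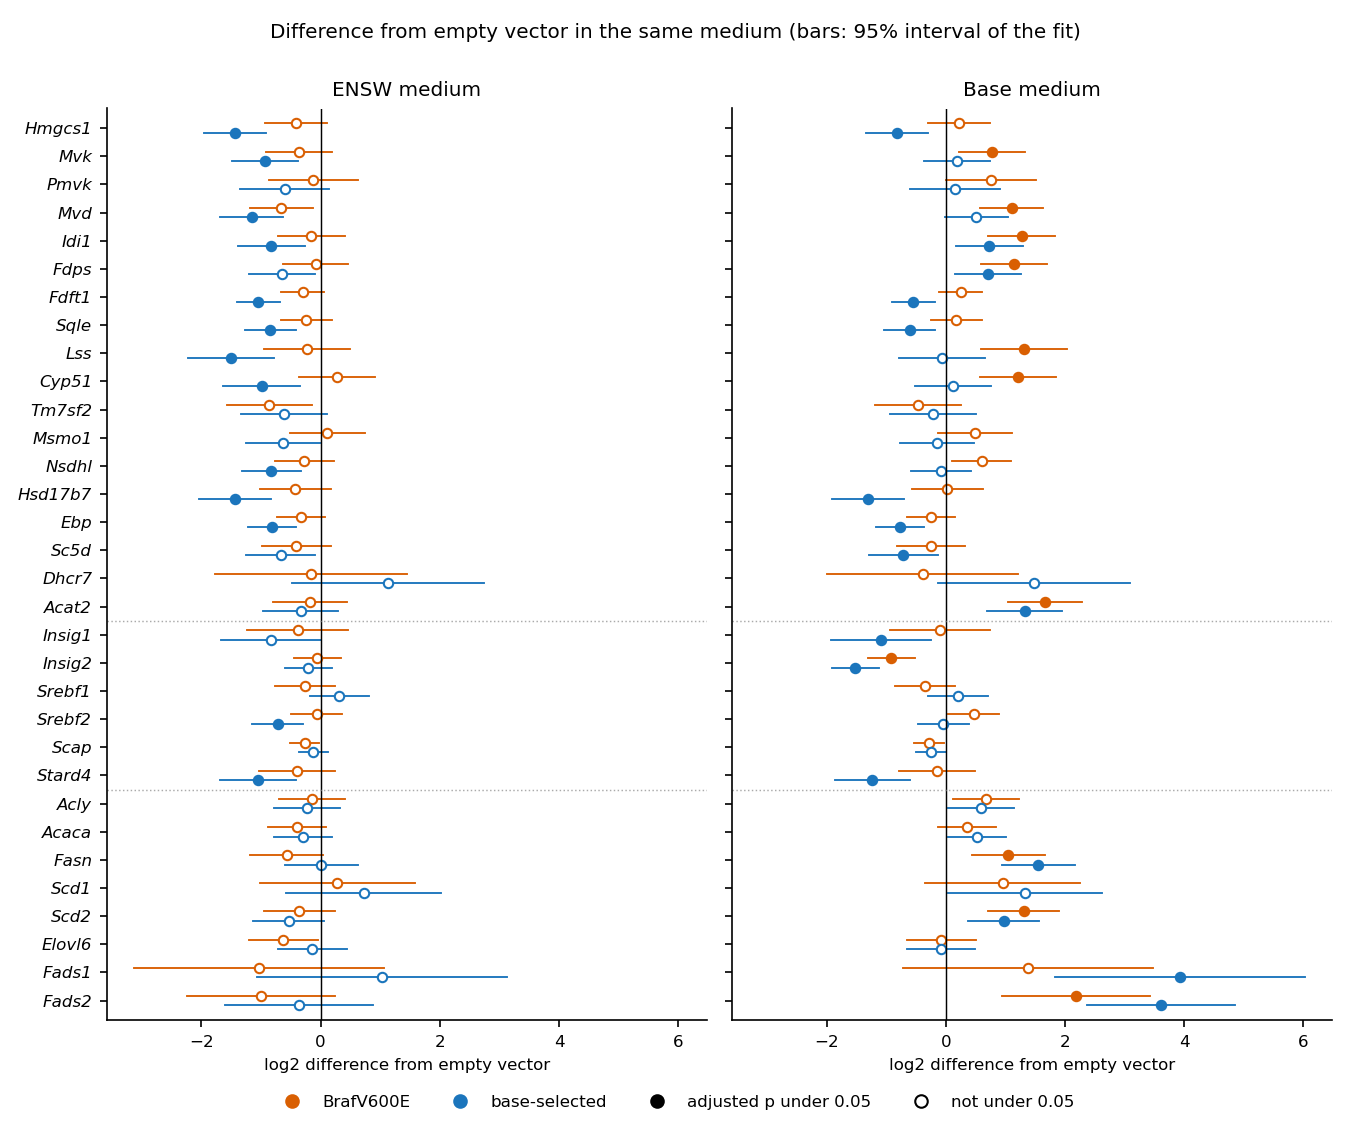
Log2 difference from EV in the same medium (horizontal axis) for BrafV600E and base-selected organoids, in ENSW and in base medium, with the 95% interval of the limma fit; filled points have an adjusted p under 0.05. In ENSW the filled points are all base-selected and lie left of 0, among sterol genes, Srebf2 and Stard4, while in base medium Fads2, Fasn, Scd2 and Acat2 lie right of 0 in both types and Insig2 left.

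Base-selected organoids were also set against the BrafV600E organoids they derive from. In ENSW no gene of the 32 was called, where 0.606% of all genes were, 0.154% higher and 0.452% lower. Of the 32, 12 were lower without overlap, as were 8.03% of all genes. Fasn and Srebf1 were higher without overlap, as were 8.45% of all genes. An unadjusted limma p under 0.05 was found for 15 of the 32, with the share of all genes not counted. The widest were Fads1 (2.06 ± 0.96, adjusted p = 0.471), Dhcr7 (1.30 ± 0.74, adjusted p = 0.592), Lss (-1.27 ± 0.33, adjusted p = 0.132) and Cyp51 (-1.26 ± 0.29, adjusted p = 0.0821). Lss was at -1.06, -0.094 and -0.0011 in base-selected against 0.73, 1.14 and 0.78 in BrafV600E, and Cyp51 at -2.08, -1.01 and -1.67 against -0.60, 0.067 and -0.43. The culture block called 1 gene lower (Fdft1, adjusted p = 0.0476, where it called 0.168% of all genes higher and 0.48% lower), the slide as a fixed block called 1 gene higher, and 1 gene was called on leaving out base-selected ENSW line 2, EV base line 1 or EV base line 2.

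In base medium 8 of the 32 were lower in base-selected organoids and none higher, where 9.77% of all genes were called, 5.14% lower and 4.63% higher. They were 6 sterol genes, Hsd17b7 (-1.33 ± 0.28, adjusted p = 0.00898), Fdft1 (-0.80 ± 0.16, adjusted p = 0.00907), Hmgcs1 (-1.04 ± 0.24, adjusted p = 0.0154), Lss (-1.38 ± 0.33, adjusted p = 0.019), Sqle (-0.79 ± 0.20, adjusted p = 0.0239) and Cyp51 (-1.09 ± 0.29, adjusted p = 0.033), with Stard4 (-1.09 ± 0.29, adjusted p = 0.0314) and Insig2 (-0.61 ± 0.18, adjusted p = 0.0477). Hsd17b7 was at -1.31, -1.02 and -0.70 against 0.15, 0.78 and 0.025, and Hmgcs1 at 4.55, 4.80 and 4.88 against 5.78, 5.92 and 5.67, with all base-selected arrays below. Fads1 (2.55 ± 0.96, adjusted p = 0.111), Dhcr7 (1.87 ± 0.74, adjusted p = 0.126), Fads2 (1.43 ± 0.57, adjusted p = 0.13) and Insig1 (-0.99 ± 0.39, adjusted p = 0.121) did not pass. With the line as a block Ebp was called too (adjusted p = 0.0236).

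With slide as a fixed block none of the 32 was called lower and 1 was called higher. There were 2 calls without BRAF base line 2, 3 without base-selected base line 1 (1 higher and 2 lower) and 5 without base-selected base line 3 or BRAF base line 3. Leaving out a whole line gave 4 (line 1), 1 (line 2) and 0 (line 3). The types met on a single slide, which held base-selected line 3 and BrafV600E line 1, so 1 culture of each type. There 17 of 18 sterol genes were lower in the base-selected culture in base medium (median -0.65, all genes -0.029) and 14 of 18 in ENSW (median -0.42, all genes -0.014). Of 8 fatty acid genes 4 were higher in base medium (median -0.12) and 7 in ENSW (median 1.11). Shares of all genes were not counted here. Over all arrays in base medium 8 of 11 colonocyte genes were lower in base-selected organoids (median -4.04) and 3 of 15 proliferation genes were higher (median 1.35), and their part was not tested.

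The median over the 18 sterol genes, each set against its EV ENSW mean, ran from -0.20 to 0.11 over the EV ENSW lines and from -0.41 to 0.26 over the EV base lines. It was -0.40, -0.06 and -0.27 in BrafV600E ENSW and 0.47, 0.49 and 0.31 in BrafV600E base medium. In base-selected lines it was -1.21, -0.50 and -0.85 in ENSW and -0.54, -0.15 and -0.26 in base medium. Among these 18 arrays the highest sterol medians were in BrafV600E base medium and the lowest was in base-selected ENSW. The WT arrays, 1 in each medium, were at 0.015 in ENSW and 0.39 in base medium, the latter within the range of BrafV600E base medium. The fatty acid median was -0.52, -0.92 and -1.39 in EV base medium and between -0.73 and 0.25 in every other group. In EV organoids the fatty acid median therefore dropped with base medium while the sterol median did not move beyond its spread, and in base-selected organoids the sterol median was low in ENSW while the fatty acid median lay within the range of EV ENSW in lines 2 and 3. These medians are descriptions with no test.

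**Figure D4:**
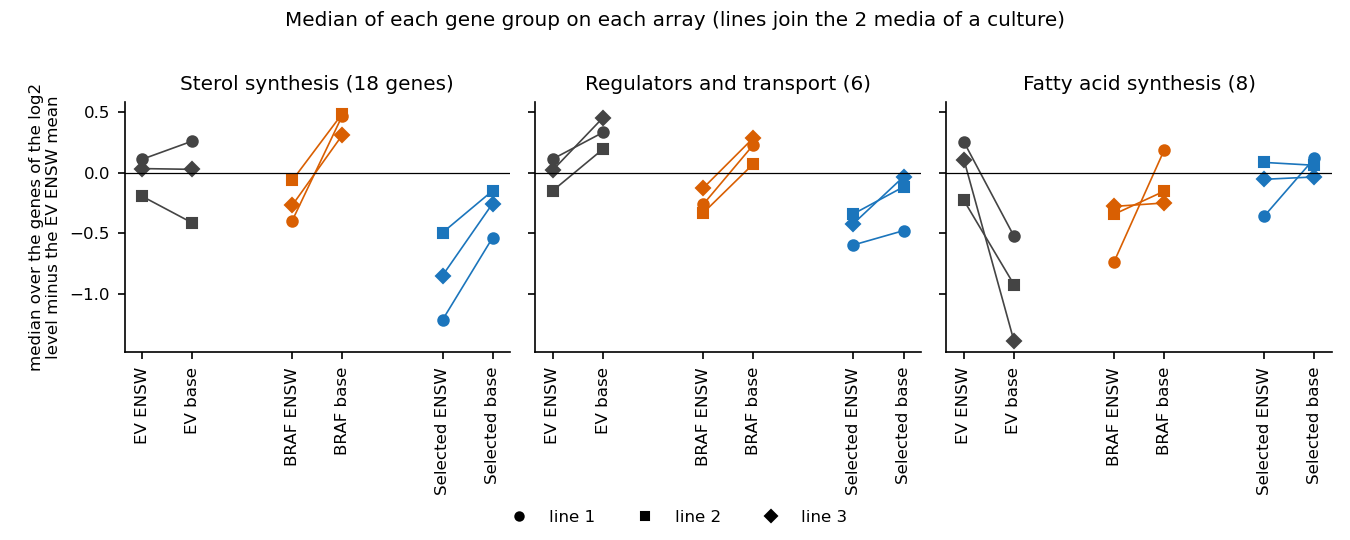
Median over the genes of each group of the log2 level minus the gene's EV ENSW mean (vertical axis) on each of the 18 arrays; lines join the media of a culture and symbols mark the line. Among these 18 arrays the sterol median is highest in BrafV600E base medium (0.31 to 0.49). By group mean it is lowest in base-selected ENSW (-1.21 to -0.50), a range that holds base-selected base line 1 (-0.54). The fatty acid median is lowest by group mean in EV base medium (-1.39 to -0.52), a range that holds BrafV600E ENSW line 1 (-0.73).

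Of the 32 genes, 23 were called in at least 1 of the 9 comparisons of groups and 9 in none: Acly, Dhcr7, Elovl6, Msmo1, Pmvk, Scap, Scd1, Srebf1 and Tm7sf2. Among these Dhcr7, the reductase of the last step of cholesterol synthesis, varied most between lines and was singled out after its values were seen. Base-selected line 1 was at -0.61 in ENSW and -0.19 in base medium, lines 2 and 3 between 1.72 and 2.66, and all EV and BrafV600E arrays lay between -1.25 and 0.59. The base-selected lines thus differed by over 2 log2 units at this gene. Scap, the SREBP escort, varied least in the set, between 3.00 and 3.49 on all 18 arrays.

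The WT organoid had 1 array per medium, so it has no replicate and no test. The 10 genes called between the media in EV are given here first. Fads2 was at 2.39 in ENSW and -1.61 in base medium, Fads1 at -1.27 and -4.82, Fasn at -1.39 and -2.38, and Acat2 at 0.46 and -0.38. Scd2 was at 5.99 in ENSW and 5.20 in base medium, and Acaca at 2.73 and 2.21. Insig2 was at 0.24 and 1.54. These 7 lay on the same side as in EV, and Idi1 too was lower in base medium, by a smaller difference (-0.28). The other two, Mvd and Fdps, differed by 0.012 and 0.0048 in WT. Several sterol genes not called in EV were higher in WT base medium, chosen here after their values were seen: Msmo1 by 0.98, Fdft1 by 0.96, Sqle by 0.91, Hsd17b7 by 0.89, Sc5d by 0.82 and Hmgcs1 by 0.81. Insig1, also not called in EV, was at -0.31 in ENSW and 1.12 in base medium.

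Other genes of these pathways were followed by lists of their own. Of 13 tested genes for SREBP processing and other sterol or isoprenoid synthesis, 3 rose and 3 fell in EV base medium; Lbr, the lamin B receptor and a sterol reductase, fell (-2.22 ± 0.30, adjusted p = 6.95e-05), as did Dhdds, a subunit of the dolichol synthase (-1.10 ± 0.24, adjusted p = 0.00211). In base-selected base medium against EV, 3 were higher, Lbr among them (1.79 ± 0.30, adjusted p = 0.000219), and 2 lower, Erlin1 among them (-2.23 ± 0.59, adjusted p = 0.00651). In BrafV600E base medium 2 were higher and 1 lower. Of the 13, 1 was called higher in BrafV600E ENSW and 1 higher and 1 lower in base-selected ENSW, each against EV.

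Of 11 tested genes for sterol efflux, storage and the LXR receptors, 1 rose in EV base medium, Osbp, an oxysterol-binding protein (0.75 ± 0.20, adjusted p = 0.00851). In base medium Soat1, which esterifies cholesterol for storage, was higher than in EV in BrafV600E (3.05 ± 0.62, adjusted p = 0.00232) and in base-selected organoids (3.25 ± 0.62, adjusted p = 0.000588). Its paralogue Soat2 was higher in BrafV600E (2.56 ± 0.52, adjusted p = 0.00226) and lower in base-selected than in BrafV600E organoids (-2.94 ± 0.52, adjusted p = 0.00369). Nr1h3, the sterol-sensing receptor LXR alpha, was lower in base-selected organoids than in EV in ENSW (-3.71 ± 0.80, adjusted p = 0.00963) and in base medium (-4.61 ± 0.80, adjusted p = 0.000298). In total 2 were higher and 3 lower in BrafV600E base medium, and 1 higher and 4 lower in base-selected base medium.

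Of 23 tested genes of other fatty acid and glycerolipid synthesis, 6 rose and 4 fell in EV base medium, near the shares of all genes (23.4% and 18.7%). Dgat1, which makes triglyceride, rose (2.19 ± 0.34, adjusted p = 0.000194), Hacd3, a dehydratase of the elongation cycle, fell (-0.94 ± 0.17, adjusted p = 0.000489) and Acsl3, an acyl-CoA synthetase, rose (1.47 ± 0.28, adjusted p = 0.000818). Against EV in base medium, Dgat1 was lower in BrafV600E (-2.05 ± 0.34, adjusted p = 0.000676) and base-selected organoids (-2.73 ± 0.34, adjusted p = 2.06e-05), as was Dgat2 (-1.75 ± 0.35, adjusted p = 0.0022 and -2.13 ± 0.35, adjusted p = 0.000185). Me1, malic enzyme, which supplies NADPH, was higher than in EV in ENSW in BrafV600E (1.18 ± 0.30, adjusted p = 0.0321) and base-selected organoids (1.48 ± 0.30, adjusted p = 0.00622). The counts were 5 higher and 4 lower for BrafV600E and 7 higher and 7 lower for base-selected organoids, both in base medium. In ENSW they were 1 higher with 2 lower, and 2 higher with 2 lower. The comparisons with EV share the EV arrays.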

How the data were processed

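Gene expression was measured on single-colour Agilent arrays (mouse design on mm9, Cy3). The deposited scanner files hold the processed signal, an intensity that Feature Extraction 10.7.3.1 had background-corrected, per the file headers. The deposited value table of the authors holds log2 values of the same arrays and was used as an alternative; the submitters' processing notes name limma, with no version.

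The log2 processed signal was taken minus the 75th percentile of each array, without control spots (1377 of an array) and outlier spots (48 over all arrays), and spots of a probe were averaged. Of 39429 probes, 26864 were well above background on at least 3 of 18 arrays, and the brightest probe stood for each of 21457 genes. No spot was saturated. Probe names were matched to RefSeq for 26581 probes by accession, 2597 by symbol and 492 by older symbol, and 9759 kept the name in the files. The number of arrays limits the precision. Limma 3.58.1 (R 4.3.3) was fitted to 6 group means of 18 arrays (12 residual degrees of freedom, empirical Bayes), with Benjamini-Hochberg adjustment over all genes, and was tested on simulated data. Summaries were made in Python 3.11.15 (pandas 2.3.3, numpy 2.4.6) and plots with matplotlib 3.10.9.

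The genes and lists (sterol, regulator, fatty acid, related pathways, proliferation, colonocyte, goblet, stem cell, epithelial, mesenchymal, blood and endothelial, adipocyte and hepatocyte) were chosen with earlier results of these data known. In each comparison values are given for up to 8 called genes by smallest adjusted p and up to 4 others by size of difference. Levels by array are given for called genes among the 12 with the widest range of group means and always for Srebf1, Srebf2, Insig1, Insig2, Scd1 and Scd2, and up to 3 called genes are named from each other list. Further genes named in the text were chosen after their values were seen. The line numbers pair the samples because the labels give them to the same line: deviations from the group means correlated at 0.42 to 0.87 between the media of a culture (9 pairs) and at -0.08 to 0.37 between types of the same number (36 pairs). Alternatives were normexp background correction, quantile normalization, the authors' table, other filters, the mean over probes, blocks for line, culture and slide, and leaving out each array or line.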

Additional observations from a re-analysis of the deposited data

Results flagged for a closer look

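The response to base medium differed between types by a test of the difference itself (limma interaction, adjusted over all genes) for 16 pairs of gene and comparison, each given as a log2 difference ± SE. BrafV600E organoids responded higher than EV for Fads2 by 3.19 ± 0.81, for Acat2 by 1.84 ± 0.41, for Mvd by 1.77 ± 0.34, for Scd2 by 1.66 ± 0.39, for Fasn by 1.62 ± 0.40 and for Idi1 by 1.42 ± 0.37. Base-selected organoids responded higher than EV for Fads2 by 3.97 ± 0.81, for Mvd by 1.67 ± 0.34, for Acat2 by 1.66 ± 0.41, for Idi1 by 1.56 ± 0.37, for Fasn by 1.55 ± 0.40, for Scd2 by 1.51 ± 0.39, for Lss by 1.43 ± 0.47, for Fdps by 1.35 ± 0.36 and for Mvk by 1.12 ± 0.36. For Insig2 the difference was -1.31 ± 0.25, the response of base-selected organoids being the lower. Both comparisons share the EV arrays. Of all genes 3.5% were called in the BrafV600E comparison and 24.2% in the base-selected one. None of the 6 BrafV600E calls held whichever single array was left out, and none was made with slide as a fixed block. Of the 10 base-selected calls, 8 held whichever single array was left out.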

How the results depend on the processing

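Under settings other than leaving out arrays, 813 values of named genes kept their direction and side of the threshold, 37 passed it and 30 no longer did. With the culture as a random block 20 genes were called for EV medium, 16 for BrafV600E medium, 1 for base-selected against BrafV600E in ENSW, 16 for the BrafV600E interaction and 18 for the base-selected interaction. The shares of all genes with this block are given with those comparisons. With slide as a fixed block the call was 1 gene, higher, for base-selected against BrafV600E in each medium and 0 for the BrafV600E interaction. BrafV600E medium had 1 call with normexp and 3 with slide as a random block, and the BrafV600E interaction 2 with no filter on dim probes. The cause was not tested.

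With the line number as a block, 12 genes were called for EV medium (all genes: 25.6% higher and 19.8% lower). For BrafV600E against EV there were 1 in ENSW (6.5% and 2.39%) and 12 in base medium (19.7% and 15.2%). For base-selected against EV there were 13 in ENSW (10.6% and 6.68%) and 17 in base medium (26.3% and 24.9%). For base-selected against BrafV600E in base medium there were 9 (5.99% and 6.87%). The BrafV600E interaction had 7 (5.17% and 1.23%) and the base-selected interaction 10 (14.8% and 12.5%). The other counts stayed at 0. The block changed no call of the 32 beyond those of Mvk, Acly, Tm7sf2, Idi1, Ebp and Insig2 given with the comparisons. The regulator median was 0.27 for BrafV600E medium with the authors' table, and for base-selected medium 0.16 with normexp, 0.25 with quantile normalization and 0.21 with the mean over probes.

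Leaving out an array or line gave 3 to 13 calls for EV medium, 0 to 2 for BrafV600E medium, 6 to 13 for BrafV600E against EV in base medium, 0 to 13 and 6 to 17 for base-selected against EV in ENSW and base medium, 0 to 1 and 0 to 8 for base-selected against BrafV600E, 0 to 9 and 1 to 13 for the interactions, and 0 for the rest. Among named genes 222 such values lost a call, 24 gained one and 1 turned direction, Fads1 in base-selected against EV in ENSW without line 2 (-0.48, in a range up to 2.07). Precision is limited by 3 lines a group.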
